A study of Mus musculus with 12 samples.

Results

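The genes described here encode the subunits of the transcription factor AP-1 in C18-4 cells. They are the FOS family genes Fos, Fosb, Fosl1 and Fosl2, the JUN family genes Jun, Junb and Jund, and Atf3, which encodes a partner of JUN proteins. These 8 genes were taken by their symbols from the 17576 genes of the deposited table, and all 8 were listed. The family was chosen by measured values, namely the large differences of Fosl1 and Fos in the comparisons of KD with 3NC, of 5NC with 3NC and of KD with 5NC, so the values of the 8 genes in these comparisons are a description without a test. Only the comparison of OV with 5NC was tested for them. It shares the 5NC libraries with comparisons that led to the choice, so it is not independent of it. RNA-seq was performed on C18-4, an immortalized line of mouse spermatogonia used as a model of spermatogonial stem cells, which the labels assign to the strain "IRC mouse". There were 4 groups with 3 libraries each. All cells had received a lentiviral vector. The 3NC cells had received LV3 with a control shRNA and the KD cells (lncRNA5251 knockdown) LV3 with a mixture of shRNAs against lncRNA5251. The 5NC cells had received the LV5 vector and the OV cells (lncRNA5251 overexpression) LV5 with lncRNA5251. Each vector is tied to its own control, so the vector, the shRNA and the culture cannot be told apart in a comparison of KD with 5NC (knockdown shRNAs) or of 5NC with 3NC (control shRNA).

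AP-1 is a dimer. FOS proteins need a JUN partner to bind DNA, while JUN proteins can also pair with each other, with ATF3 or with MAF proteins. The usual AP-1 site is TGANTCA. Fos, Fosb, Jun and Junb are immediate early genes whose transcription rises quickly after growth factors, Fosl1 (FRA-1) and Fosl2 (FRA-2) are slower members whose proteins lack the strong activation domain of FOS, Jund is usually expressed steadily, and Atf3 is induced by stress. In spermatogonial stem cells, the growth factor GDNF is known to raise Fos through RAS and ERK.

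The 3 knockdown shRNAs and the control shRNA are shown because they are the designed difference between the LV3 groups. The sources differ on whether 2 or 3 of them were mixed, and the level of lncRNA5251 itself is not analysed here. Each is written in the sense direction, and the capitals mark the 7 bases that pair with the seed of the antisense strand (its bases 2 to 8).
Sh3NC: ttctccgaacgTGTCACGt
shlncRNA5251 KD #1: gctgggacttaatGTCCTTCt
ShlncRNA5251 KD #2: gcatgggcaattcAAACAAAt
ShlncRNA5251 KD #3: gcttattatgcatCGTAAACc

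These 7 bases were looked for in the longest protein-coding GENCODE M21 transcript of each member. The Fosl1 transcript (1864 bases) held none of the 4 seed sites. The Fos transcript (2108 bases) held 1 site of shRNA 1 and 4 sites of shRNA 2, and the Jun transcript held 1 site of shRNA 2. Fosl2 held 2 sites and Junb 1 site of shRNA 1, Fosb held 2 sites of shRNA 1 and 3 of shRNA 2, and Jund and Atf3 held none. Among 21877 genes searched in the same way, a site was found in 22.3% for shRNA 1, 37.5% for shRNA 2, 2.27% for shRNA 3 and 6.50% for the control. The longest run of any knockdown shRNA found in a member was 9 bases. Such a match is a description of the sequence and not evidence of binding.

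Of the 8 members, 7 have a start site in the RefSeq promoter table (build GRCm38.p6), and Fosl1 is not among them. The 250 bases before the start are printed for Fos and Atf3, which differed between OV and 5NC (below), because they held the core of the cAMP response element, TGACGT. The capitals mark it, on either strand.
Fos, chr12:85473640-85473889, plus strand: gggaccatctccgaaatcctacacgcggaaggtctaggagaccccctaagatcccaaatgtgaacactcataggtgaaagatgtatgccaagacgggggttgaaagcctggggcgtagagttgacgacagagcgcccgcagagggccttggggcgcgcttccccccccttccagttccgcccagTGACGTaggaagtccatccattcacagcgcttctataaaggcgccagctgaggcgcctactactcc
Atf3, chr1:191183334-191183583, minus strand: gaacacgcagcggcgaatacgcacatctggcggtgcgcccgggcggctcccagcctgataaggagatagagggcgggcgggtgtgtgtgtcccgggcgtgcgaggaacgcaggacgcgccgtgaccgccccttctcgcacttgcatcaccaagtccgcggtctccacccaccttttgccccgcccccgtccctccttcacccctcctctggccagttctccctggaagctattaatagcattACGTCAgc

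The core began at base -66 of Fos and at base -8 of Atf3, counted from the start. It was present in 7.51% of all 32851 windows that run from 250 bases before to 50 bases after a start. The full element, in which the core is followed by CA, was in 1.79% of windows, the AP-1 site TGANTCA in 7.81% and the CArG box in 1.63%. None of these last 3 was found in the windows of the 7 members, on either strand. Sites farther than 250 bases before a start were not looked for, so a promoter may hold them there.

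The values are RPKM (read numbers divided by gene length and by the reads of the library) as deposited, which are scaled by gene length, so that levels can be compared between genes. The number of reads behind a value is unknown. The smallest steps between the values of 63 low genes put the relative sequencing depth of each library between 0.974 and 1.04. Spearman's correlation across genes within a group was between 0.987 and 0.990. On the log2(RPKM + 1) scale, OV replicate 3 lay farthest from the other libraries of its group (root mean square difference 0.192) and 3NC replicate 3 nearest (0.109). Of 17 listed spermatogonial markers, 4 had a mean of at least 1 RPKM (Itga6, Etv5, Uchl1 and Id4). Ret, Nanos2, Kit and Pou5f1 were listed at 0 in every library, and Ddx4, Dazl, Gfra1 and Zbtb16 did not exceed 0.170 RPKM. Of 10 peritubular and fibroblast markers, 8 had a mean of at least 1 RPKM. Their summed level was 854 to 897 RPKM for 3NC, 977 to 1077 for KD, 1166 to 1205 for 5NC and 1225 to 1309 for OV, and its part in the differences below was not tested. The single markers did not move together. Col3a1 was at 36.0, 59.5, 118 and 104 RPKM on average in 3NC, KD, 5NC and OV, while Des was at 11.4, 13.9, 6.50 and 6.33 and Pdgfra at 1.32, 1.09, 0.877 and 0.803. Of 10 listed Sertoli cell markers 4 had a mean of at least 1 RPKM (Wt1, Gata4, Inha and Rhox5), with a summed level of 59.2 to 67.8 RPKM over all libraries. Only Star of 5 Leydig cell markers and Cd68 of 5 macrophage and endothelial markers reached that mean. The mean of Cd68 was 5.05 RPKM for 3NC, 2.69 for KD, 2.18 for 5NC and 1.86 for OV, thus highest in 3NC, and its part was not tested. In bulk RNA, fewer cells of a type and less RNA per cell cannot be told apart.

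Fosl1 was the member that varied most, with a 46.3-fold range over the 12 libraries. Its level in replicates 1, 2 and 3 was 31.2, 29.8 and 31.9 RPKM in 3NC, and 1.45, 0.690 and 0.810 in KD. It was 1.61, 1.98 and 1.58 RPKM in 5NC, and 3.44, 3.77 and 2.70 in OV. Thus 3NC alone had a high level, and the other groups followed in the order OV, 5NC and KD without overlap between neighbours. The mean of 3NC was 31.5 times that of KD and 18 times that of 5NC. On the log2(RPKM + 1) scale, the difference was -4.03 (standard error 0.12) for KD against 3NC and -3.56 (standard error 0.12) for 5NC against 3NC. Each of these was the largest decrease among the 11435 genes tested, those that reached 1 RPKM in 3 or more libraries. These comparisons share the 3NC libraries. KD against 5NC differed by -0.47 (standard error 0.12), or by -0.81 with 0.1 in place of 1 added to the RPKM.

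Fos, the founding member of the family, was highest in KD. Its level was 9.46, 9.97 and 9.58 RPKM in replicates 1 to 3 of 3NC, and 20.1, 21.6 and 22.9 in KD. It was 6.36, 7.19 and 6.71 RPKM in 5NC, and 5.25, 5.11 and 5.01 in OV. The groups did not overlap in the order KD, 3NC, 5NC and OV. The mean of KD was 2.23 times that of 3NC and 3.19 times that of 5NC, with log2 differences of 1.08 and 1.54 (standard error 0.06 for each). Fos and Fosl1 therefore lay on opposite sides in KD against 3NC, while both were lower in 5NC than in 3NC, Fos by -0.46 (standard error 0.06) on the log2 scale.

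Fosl2 was lowest in KD. Its level was 16.3, 16.5 and 16.4 RPKM in 3NC, and 9.20, 9.43 and 8.53 in KD. It was 22.6, 22.3 and 22.4 RPKM in 5NC, and 22.9, 21.3 and 23.3 in OV. The LV5 groups overlapped and were both above 3NC, which was above KD. The log2 difference was -0.79 (standard error 0.05) for KD against 3NC, 0.43 (standard error 0.05) for 5NC against 3NC and -1.22 (standard error 0.05) for KD against 5NC. Fosb was close to absent, between 0.110 and 0.460 RPKM over all libraries, and did not pass the filter on low values. Its mean was 0.257 ± 0.0643 RPKM for 3NC, 0.350 ± 0.0964 for KD, 0.190 ± 0.02 for 5NC and 0.127 ± 0.0289 for OV (mean ± SD, n = 3).

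The 3 JUN genes were all lower in KD than in the other groups. Jun was at 17.1, 16.0 and 16.6 RPKM in 3NC, and at 8.75, 9.33 and 8.54 in KD. It was at 15.6, 14.2 and 14.3 RPKM in 5NC, and at 18, 17.9 and 18.4 in OV. No groups overlapped for Jun, in the order OV, 3NC, 5NC and KD, and the log2 difference of KD against 3NC was -0.83 (standard error 0.06). Junb had the highest mean of the 8 genes in every group and ranged from 47.1 to 54.3 RPKM for 3NC, 30.8 to 39.0 for KD, 40.6 to 42.9 for 5NC and 39.7 to 44.4 for OV. Its log2 difference was -0.51 (standard error 0.08) for KD against 3NC. Jund ranged from 24.1 to 28.0 RPKM for 3NC, 16.6 to 23.9 for KD, 32.4 to 42.1 for 5NC and 35.5 to 39.8 for OV. Its highest 5NC value was replicate 1 and its lowest KD value was replicate 3, and the log2 difference of KD against 3NC was -0.30 (standard error 0.12), or -0.14 without KD replicate 3. OV and 5NC overlapped for Junb and for Jund.

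Atf3 was high in the LV5 groups. Its level was 10.4, 11.4 and 10.7 RPKM in 3NC, and 10.7, 8.80 and 8.98 in KD. It was 19.8, 18.2 and 20.9 RPKM in 5NC, and 27.5, 29.4 and 28.4 in OV. The 3NC and KD libraries overlapped, and each LV5 group lay above them. The log2 difference was -0.18 (standard error 0.07) for KD against 3NC, 0.80 (standard error 0.07) for 5NC against 3NC and -0.98 (standard error 0.07) for KD against 5NC.

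**Figure D1:**
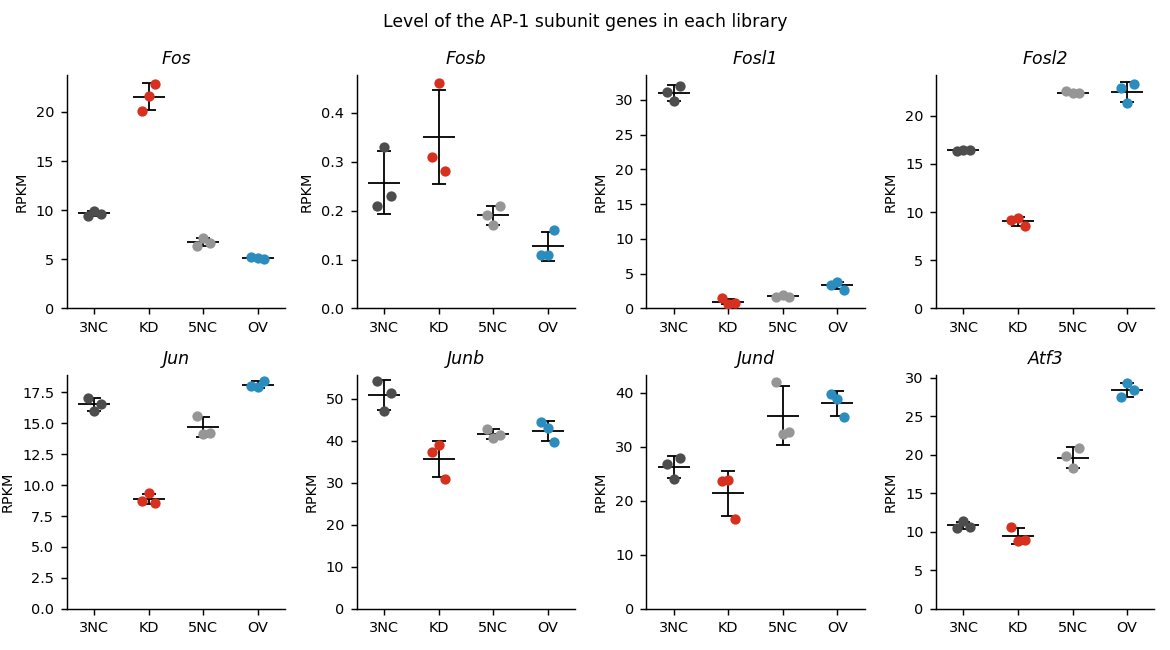
RPKM of each AP-1 subunit gene (vertical axes, each from 0) in the 3NC, KD, 5NC and OV groups, with 1 point per library and the mean with its SD (n = 3). Fosl1 is near 31 RPKM in 3NC only, Fos is highest in KD, and Atf3 is highest in OV.

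Because RPKM can be summed over genes, the make-up of the FOS family was followed by library. The summed level of Fos, Fosb, Fosl1 and Fosl2 was 57.3 ± 0.817 RPKM for 3NC, 31.9 ± 0.747 for KD, 31.1 ± 0.509 for 5NC and 31.1 ± 0.704 for OV (mean ± SD, n = 3). The sums of KD, 5NC and OV were alike, between 30.3 and 32.5 RPKM, but different genes held most of each. Fosl1 made up 54.0% ± 1.20 of the sum for 3NC, 3.10% ± 1.37 for KD, 5.54% ± 0.622 for 5NC and 10.7% ± 1.89 for OV (SD, n = 3). Fos made up 16.9% ± 0.649 for 3NC, 67.4% ± 2.83 for KD, 21.7% ± 1.0 for 5NC and 16.5% ± 0.388 for OV (mean ± SD, n = 3). Fosl2 made up 72.1% ± 1.5 in 5NC and 72.4% ± 2.2 in OV, against 28.6% ± 0.455 in 3NC and 28.4% ± 1.84 in KD (SD, n = 3). Thus the gene with the largest share was Fosl1 in 3NC, Fos in KD and Fosl2 in 5NC and OV.

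The JUN family was less variable in its make-up. Its summed level was 93.8 ± 5.81 RPKM for 3NC, 66.0 ± 8.77 for KD, 92.1 ± 7.35 for 5NC and 98.6 ± 4.47 for OV (mean ± SD, n = 3). Junb held 54.3% ± 0.888 of it for 3NC, 54.2% ± 0.847 for KD, 45.3% ± 2.34 for 5NC and 43.0% ± 0.546 for OV (SD, n = 3). The FOS family held 35.4% ± 0.994 of the sum of all 8 genes for 3NC, 29.9% ± 3.00 for KD, 21.8% ± 1.39 for 5NC and 19.7% ± 0.672 for OV (SD, n = 3). The level of mRNA does not give the level of the proteins or of their dimers.

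**Figure D2:**
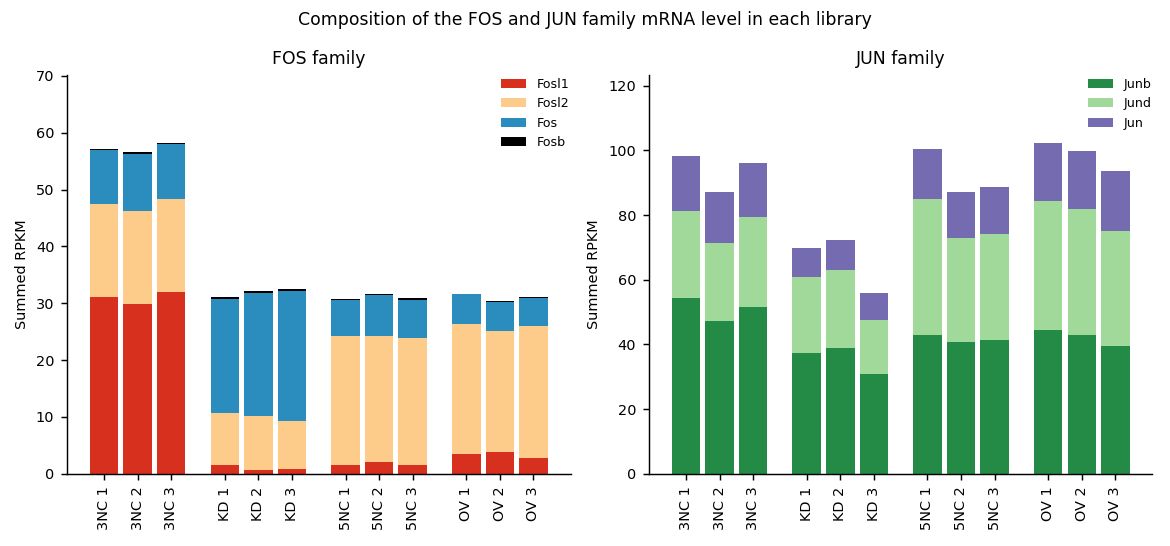
Summed RPKM (vertical axes, from 0) of the FOS family (left) and the JUN family (right) in each of the 12 libraries, split by gene in each bar. The FOS bars of KD, 5NC and OV have nearly the same height, between 30.3 and 32.5 RPKM, with Fos as the largest part in KD and Fosl2 in 5NC and OV.

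The comparison of OV with 5NC asks how the cells given lncRNA5251 differ from those with the LV5 vector alone, and here the members were tested with limma across all 11435 genes, with Benjamini-Hochberg adjustment. The threshold of the study requires an adjusted p no higher than 0.001 together with a log2 difference of 1 or more in either direction. By limma, 0 of the 7 members tested passed it, as did 0% of all genes, although 4240 of all genes had an unadjusted p under 0.05. At a looser threshold, an adjusted p up to 0.05 with no limit on the size, Fosl1, Jun and Atf3 were higher and Fos was lower in OV, where 8.07% of all genes were higher and 13.9% lower. Fosl1 went from 1.72 ± 0.223 to 3.30 ± 0.548 RPKM (SD, n = 3), which is 1.92 times as much. This was a rise of 0.66 ± 0.12 (standard error) in log2, with a limma adjusted p = 0.00354. Atf3 went from 19.7 ± 1.34 to 28.4 ± 0.906 RPKM (SD, n = 3). This was a rise of 0.51 ± 0.07 (standard error) in log2, with a limma adjusted p = 0.000485. Jun went from 14.7 ± 0.807 to 18.1 ± 0.264 RPKM (SD, n = 3). This was a rise of 0.29 ± 0.06 (standard error) in log2, with a limma adjusted p = 0.004. Fos went from 6.75 ± 0.417 to 5.12 ± 0.121 RPKM (SD, n = 3). In log2 it fell by 0.34 ± 0.06 (standard error), with a limma adjusted p = 0.0032.

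Fosl2, Junb and Jund did not pass the test in OV against 5NC. The log2 difference of Fosl2 was 0.00 with a 95% interval from -0.11 to 0.12 (adjusted p = 0.961, limma). That of Junb was 0.02, with an interval from -0.14 to 0.19 (adjusted p = 0.849, limma). That of Jund was 0.10, with an interval from -0.16 to 0.35 (adjusted p = 0.588, limma). The share of Fosl1 in the FOS sum was 5.11 percentage points higher in OV than in 5NC (two-sided exact permutation p = 0.1, which is as low as 3 libraries against 3 can go). The share of the FOS family in all 8 genes differed by -2.15 percentage points, with overlapping groups (two-sided exact permutation p = 0.2), and by -1.32 with Atf3 left out of the sum (p = 0.3 in the same exact permutation test). Nothing in the labels says that the 3 libraries of a group came from separate cultures, so the p-values measure the spread between libraries, which may be technical.

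In the other comparisons the counts of members past each threshold only describe the fit and are no test, since these comparisons were used to choose the family. In KD against 3NC, 2 of 7 members passed the threshold of the study (Fos higher, Fosl1 lower), which 1.57% of all genes did. At the looser threshold, Fos was higher and 6 members were lower, against 31.9% of all genes higher and 23.5% lower. Of the 6, Jund dropped out without KD replicate 3, without 3NC replicate 1 or 3, or with no filter on low values. Atf3 dropped out without any 1 of the 3NC libraries or of KD replicates 2 and 3, as it did in the fit to these 6 libraries and with no filter. In 5NC against 3NC, Fosl1 passed the threshold of the study, which 2.61% of all genes did, and at the looser threshold Fosl2, Jund and Atf3 were higher and 4 members were lower, against 31% and 25.6% of all genes. Jun dropped out there without 3NC replicate 1 or 3 or 5NC replicate 2 or 3. In KD against 5NC, Fos (higher) and Fosl2 (lower) passed the threshold of the study, which 3.55% of all genes did, and at the looser threshold Fos was higher and 6 members were lower, against 34% and 31.4% of all genes. Junb dropped out there without KD replicate 3 (-0.12 in place of -0.22), without 5NC replicate 1, with no filter or after quantile normalization. The median log2 difference of the 7 members was -0.51 in KD against 3NC, -0.16 in 5NC against 3NC, -0.67 in KD against 5NC and 0.10 in OV against 5NC, where that of all genes was 0.04, 0.02, 0.02 and -0.03.

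**Figure D3:**
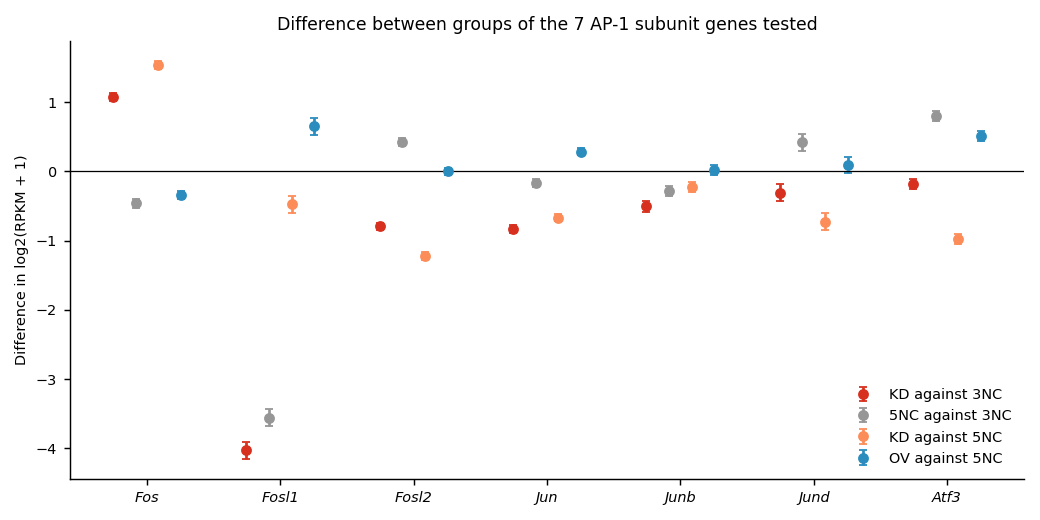
Difference in log2(RPKM + 1) between groups (vertical axis) with its standard error for the 7 members tested, in 4 comparisons marked by colour. Fosl1 is at -4.03 in KD against 3NC and at -3.56 in 5NC against 3NC, and Fos is above 1 only in the comparisons of KD, with 1.08 and 1.54.

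Other dimer partners of JUN and FOS were read from a list of 14 genes, of which 10 were tested. In KD against 3NC, 1 was higher and 4 were lower at the looser threshold (limma), where 31.9% of all genes were higher and 23.5% lower. Maff, which encodes a small MAF protein, passed the threshold of the study. It fell from 35.9, 32.9 and 34.1 RPKM in 3NC to 15.3, 15.4 and 14.3 in KD (log2 difference -1.14, standard error 0.06, adjusted p = 4.82e-10, limma). Maf, a large MAF protein gene, was at 5.36 ± 0.116 RPKM in 3NC and 3.96 ± 0.400 in KD, but at 20.4 ± 0.917 for 5NC and 20.8 ± 1.43 for OV (mean ± SD, n = 3). The log2 difference was 1.75 for 5NC against 3NC (adjusted p = 2.88e-11, limma) and -2.11 for KD against 5NC (adjusted p = 3.86e-12, limma). In OV against 5NC, Maff (0.22, adjusted p = 0.0126, limma) and Mafk (0.21, adjusted p = 0.0204, limma) rose and 0 of the 10 fell, where 8.07% of all genes rose and 13.9% fell.

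Upstream of the family, 6 genes of SRF and its partners, which drive Fos transcription, were tested, and 0 passed the threshold of the study in any of the 4 comparisons, where at most 3.55% of all genes did. At the looser threshold (limma), 2 of the 6 were lower and 0 higher in KD against 3NC, with a median of -0.03, against 23.5% and 31.9% of all genes. Srf had a mean of 16.2 ± 0.290 RPKM in 3NC against 12.4 ± 1.07 in KD (SD, n = 3; -0.37, adjusted p = 0.000186, limma), and Elk3 also fell (-0.27, adjusted p = 0.00135, limma). Both were picked after their values were seen, and Elk3 differed more between the controls (-0.64 in 5NC against 3NC). Of 15 genes of the ERK cascade, 5 were higher and 4 lower in KD against 3NC at the looser threshold (limma), with a median of 0.09. Of 12 JNK and p38 cascade genes tested, 4 were higher and 2 lower, with a median of 0.03. The counts for the ERK, JNK and p38 cascades are near the background of 31.9% of all genes higher and 23.5% lower, and transcript levels do not show whether a kinase is active. The ERK effector kinase gene Rps6ka2 passed the threshold of the study in KD against 5NC, from 5.50 ± 0.330 to 1.58 ± 0.135 RPKM (SD, n = 3; log2 difference -1.34, adjusted p = 2.31e-09, limma). Its mean in 3NC was 2.38 RPKM. The log2 difference was only -0.39 for KD against 3NC, while 5NC lay above 3NC by 0.94.

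Among 10 genes for the decay of FOS and JUN mRNA or protein, 6 were lower and 0 higher in KD against 3NC at the looser threshold (limma), with a median of -0.18, against 23.5% of all genes lower and 31.9% higher. They were Zfp36, Zfp36l1 and Zfp36l2, whose proteins bind AU-rich elements and promote mRNA decay, Hnrnpd, which encodes AUF1, Dcaf1, which encodes a substrate receptor of a ubiquitin ligase, and Elavl1 (-0.15, adjusted p = 0.0295, limma). Elavl1 encodes HuR, which stabilizes mRNAs with AU-rich elements and so acts against decay. Zfp36l2 had the largest of these differences (-0.86, adjusted p = 5.16e-09, limma) and Hnrnpd fell from 30.6, 32.1 and 31.1 RPKM in 3NC to 17.2, 15.8 and 17.8 in KD (-0.85, adjusted p = 2.67e-09, limma). In OV against 5NC 1 was higher and 2 were lower, against 8.07% and 13.9% of all genes, and Hnrnpd was the one that rose (0.21, adjusted p = 0.00891, limma).

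Most genes known as AP-1 targets were lower in KD and in 5NC than in 3NC. Of 25 targets 20 were tested. Mmp10, Sprr1a and Il6 passed the filter on low values through 3NC alone, so that they had to be lower elsewhere, and the counts are given with and without these 3. Mmp9 also needed 3NC to pass, since outside 3NC it reached 1 RPKM only in KD replicates 1 and 2. It is still counted among the other 17, as lower in 5NC against 3NC (-0.56) and higher in KD against 5NC (0.52). In KD against 3NC 18 fell and 0 rose at the looser threshold (limma), with a median of -0.84, and 15 of the other 17 fell, with a median of -0.67, against 23.5% of all genes lower and 31.9% higher. In 5NC against 3NC 14 fell and 2 rose, with a median of -0.66, and of the other 17 genes 11 fell and 2 rose, with a median of -0.55, against 25.6% of all genes lower and 31% higher. These comparisons share the 3NC libraries, and the list was written with results for Sprr1a, which is in it, already known. In KD against 5NC 9 were higher and 7 lower, with a median of 0.08, and of the other 17 genes 8 were higher and 7 lower, with a median of 0.01, against 34% and 31.4% of all genes. The median over all genes was 0.04, 0.02 and 0.02 in these comparisons.

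Several targets were highest in 3NC. Mmp10, a matrix metalloproteinase, was at 4.58, 4.42 and 4.14 RPKM in 3NC, and between 0.160 and 0.710 in all other libraries. Sprr1a, a cornified envelope gene, was between 4.11 and 5.75 RPKM in 3NC and between 0.1 and 0.41 elsewhere. Spp1 (osteopontin) was at 181 ± 8.03 RPKM for 3NC, 63.5 ± 3.48 for KD, 50.4 ± 2.0 for 5NC and 45.9 ± 1.91 for OV (mean ± SD, n = 3). Hmga1 and Hmga2, chromatin protein genes, were likewise highest in 3NC, and so were Cd44, a hyaluronan receptor, and Hbegf, an EGF family ligand, which passed the threshold of the study in 5NC against 3NC (-1.39 and -1.06, adjusted p = 4.33e-11 and 2.65e-10, limma). Fosl1 was highest in 3NC too, and its part in the levels of these targets was not tested. For Hmga2 the KD and 5NC libraries overlapped, and neither KD nor OV passed the test against 5NC (-0.07 and 0.13, adjusted p = 0.314 and 0.142, limma). Hmga1 (14.5 against 6.61 RPKM), Cd44 (31.0 against 18.4 RPKM) and Hbegf (16.7 against 10.1 RPKM) had higher means in KD than in 5NC (adjusted p = 7.82e-08, 4.09e-08 and 3.4e-08, limma). Cd44 and Hbegf were picked after their values were seen. Mmp9, another matrix metalloproteinase, had nearly the same mean in 3NC (1.11 RPKM) and KD (1.06), and a lower one in 5NC (0.437) and OV (0.403).

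Hmox1, Mt2 and Lif were lowest in KD. Hmox1, the inducible heme oxygenase, was at 108, 112 and 111 RPKM in 3NC, and at 40.2, 38.1 and 37.7 in KD. In 5NC it was at 96.3 ± 3.67 RPKM and in OV at 99.4 ± 6.04 (mean ± SD, n = 3). The log2 difference was -1.49 for KD against 3NC (adjusted p = 1.49e-11, limma) and -1.29 for KD against 5NC (adjusted p = 2.09e-11, limma). Lif, a cytokine gene, was at 9.35 ± 0.305 RPKM for 3NC, 2.90 ± 0.331 for KD, 8.76 ± 0.599 for 5NC and 10.5 ± 0.120 for OV (mean ± SD, n = 3). Mt2, a metallothionein gene, was at 49.0 ± 2.80 RPKM for 3NC, 20.1 ± 1.74 for KD, 70.5 ± 3.84 for 5NC and 89.4 ± 8.54 for OV (mean ± SD, n = 3). Both LV5 groups and 3NC were above KD for these 3 genes, as they were for Jun, Junb, Jund, Fosl1 and Fosl2. How many of all genes had this order was not counted.

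In OV against 5NC, 5 of the 20 targets rose and 0 fell at the looser threshold (limma), with a median of 0.08, where 8.07% of all genes rose, 13.9% fell and the median was -0.03. Without Mmp10, Sprr1a and Il6, which reached the filter through 3NC alone, 4 of 17 rose and 0 fell, with a median of 0.10. The 4 were Mt2 (0.34, adjusted p = 0.00705, limma), the cyclin D1 gene Ccnd1 (0.29, adjusted p = 0.0009), Lif (0.24, adjusted p = 0.0269) and Ezr, the ezrin gene (0.16, adjusted p = 0.00754). The fifth, Mmp10 (0.39, adjusted p = 0.00622, limma), did not exceed 0.710 RPKM in either group. Ccnd1 rose from 28.4, 28.2 and 29.6 RPKM in 5NC to 34.1, 35.7 and 35.9 in OV. None of them reached a log2 difference of 1.

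**Figure D4:**
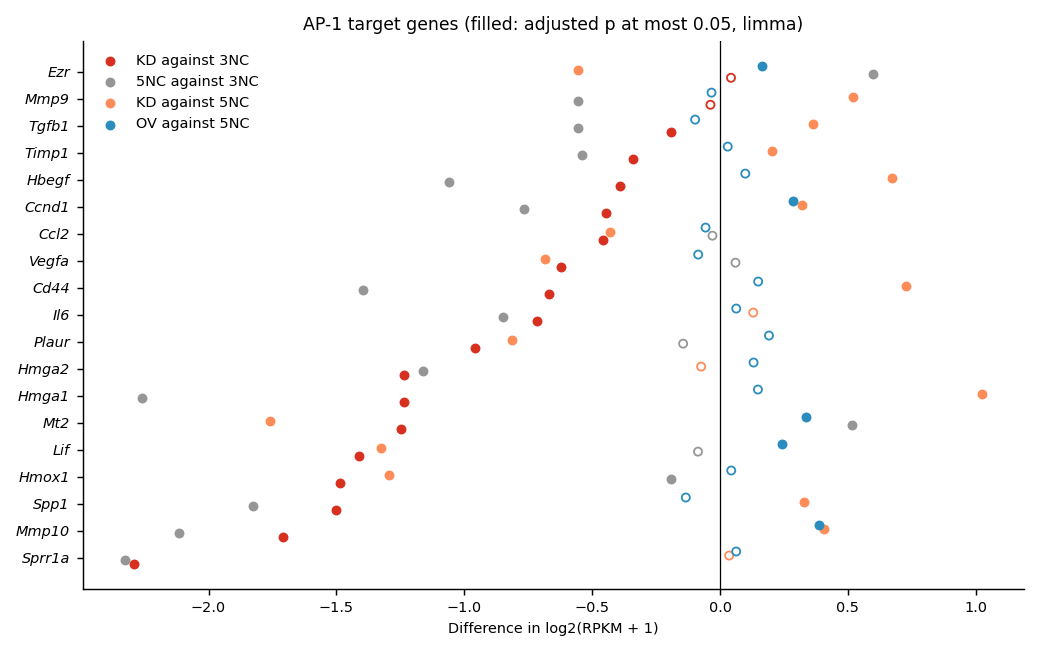
Difference in log2(RPKM + 1) (horizontal axis) of 19 of the 20 AP-1 target genes tested, ordered by KD against 3NC, in 4 comparisons marked by colour, filled where the limma adjusted p did not exceed 0.05. For 17 of the 19 genes KD against 3NC is a filled point below 0, while the filled points of OV against 5NC, 5 in all, lie above 0. The 17 include Mmp10, Sprr1a and Il6, which passed the filter through 3NC alone and so had to be lower elsewhere. The 5 include Mmp10, which did not exceed 0.710 RPKM in 5NC or OV. Of all genes, 23.5% were lower and 31.9% higher in KD against 3NC. In OV against 5NC, 8.07% of all genes were higher and 13.9% lower.

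The genes whose pattern was most like that of a member were found by the root mean square difference between log2(RPKM + 1) profiles over the 12 libraries, each centred on its mean. For Fosl1 these were Sprr1a (0.679), LOC105244034 (0.732), Prkg2 (0.790), Gsta1 (0.830) and Mmp10 (0.843), which is far from a match when set against the spread of Fosl1 itself, 1.57. For Fos they were Atp1b2 (0.120), Rbm11 (0.131), Tmem47 (0.142), Pmp22 (0.150) and Tdrp (0.158), against 0.710 for Fos itself. Atp1b2 was at 7.41, 18, 6.36 and 4.34 RPKM on average in 3NC, KD, 5NC and OV. For Fosl2 they included Sqstm1 (0.0584), Shmt1, Atf5 and Mcc. For Jun they were Ctgf (0.0427), Noc2l, Dph2, Hdgf and Tle3, for Junb Cars2 (0.0474), Lonp1, Mob3a, E2f4 and Gemin5, and for Jund Slc19a1 (0.0781), Taf10, Comtd1, Map2k2 and Dhx37. For Atf3 they were Foxq1 (0.142), Cdc42ep1, Ap5z1, Alad and Hist1h2ao. Among the members, the closest profiles were those of Fosl2 and Jun (0.242) and the most distant those of Fos and Fosl1 (1.85).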

How the data were processed

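RNA of 12 C18-4 libraries (3NC, KD, 5NC and OV, 3 each) was analysed, with the group and the replicate number read from each title. The authors enriched mRNA with oligo(dT) beads, mapped reads to reference genes with SOAPaligner and deposited RPKM values for 17576 genes. Read numbers, the gene set and the build are not given in the sources used here, so a bias by length or GC content stays in the values. The deposited RPKM were transformed to log2(RPKM + 1). Fold changes on this scale understate the change of low genes. The 11435 genes that reached 1 RPKM in 3 or more libraries entered 1 linear model of the 4 groups (limma 3.58.1, R 4.3.3) over all 12 libraries, with moderated variances that follow mean expression. P-values were adjusted over all of these genes by the Benjamini-Hochberg method. Members and gene lists were chosen with earlier results of these data known. Named genes are the 8 members, list genes past the threshold of the study (at most 5 per list and comparison, with Hmga2, Cd44, Hbegf, Mmp9, Zfp36, Zfp36l1, Elavl1, Dcaf1, Elk3, Srf, Zfp36l2, Hnrnpd and the genes of OV against 5NC chosen after their values were seen), and the 5 nearest profiles of each member. Of the genes this rule names, 2 are not reported here. Alternatives were a pseudocount of 0.1, no filter, quantile normalization, separate fits to each pair of groups, a looser threshold, a replicate block and each library left out. Figures were drawn with matplotlib 3.10.9.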

Additional observations from a re-analysis of the deposited data

How the results depend on the processing

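At the threshold of the study, the members that passed were the same under all alternatives but those named here. In KD against 3NC their number was 2 in every fit, with the replicate block too, and from 2 to 2 with each library left out in turn. In OV against 5NC it was 0 in every fit, with the replicate block too, and in 5NC against 3NC it was 1, from 1 to 1 with each library left out. In KD against 5NC it was 2, and from 2 to 3 with each library left out. Atf3 was added without KD replicate 1, without 5NC replicate 2 and with a pseudocount of 0.1. The looser threshold (adjusted p up to 0.05, no limit on the fold), which admits more by construction, gave 7 members in KD against 3NC, 4 in OV against 5NC, 7 in 5NC against 3NC and 7 in KD against 5NC. For the 6 lists of other AP-1 genes it gave 46 genes in place of 10 in KD against 3NC, 15 in place of 0 in OV against 5NC, 44 in place of 9 in 5NC against 3NC and 46 in place of 6 in KD against 5NC.

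In OV against 5NC, the limma adjusted p over 12 fits ranged from 0.000437 to 0.0249 for Fosl1, from 0.000284 to 0.00529 for Atf3, from 0.00213 to 0.0245 for Jun and from 0.00203 to 0.0211 for Fos, so these 4 kept their direction and an adjusted p of at most 0.05. Without OV replicate 3, which lay apart from its group, the log2 differences were 0.76, 0.51, 0.28 and -0.33. The difference in the share of Fosl1 between OV and 5NC ranged from 4.22 to 6.10 percentage points with each library left out, and that in the share of the FOS family from -2.89 to -1.51, or -1.32 without Atf3 in the sum. Fosb, fitted without a filter, had a log2 difference of -0.08 in OV against 5NC (adjusted p = 0.378, limma). Replicate numbers did not pair the libraries. Deviations from the group means of same-numbered libraries correlated between -0.178 and 0.176 across genes, above 0.1 in 2 of 12 pairs, and the replicate block changed no call of a member at either threshold in OV against 5NC. At the looser threshold it ended the call of Atf3 in KD against 3NC. RPKM do not hold read numbers, which limits what can be said of Fosb and of Fosl1 in KD.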
